A study of Mus musculus with 8 samples.

Results

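The 10 genes examined here are those used to tell the B-1, marginal zone and follicular subsets of mouse B cells apart, namely Bhlhe41, Zbtb32 and Spn for B-1 cells, Cd1d1, Cd9, Mzb1, Dtx1 and Notch2 for marginal zone B cells, and Fcer2a and Klf2 for follicular B cells. They were taken by symbol from a matrix of bulk RNA-seq counts with 24902 gene symbols. All 10 had a value in each of the 8 libraries, and all 10 were among the 13173 genes that passed the filter on low counts and were tested. The study asked how excess PRMT5, an arginine methyltransferase, acts in mouse models of chronic lymphocytic leukemia (CLL). The 8 libraries came from splenic B cells of mice at early removal criteria (ERC), the point of illness at which animals were taken out of the study, of which 4 were Eµ-PRMT5, 3 were Eµ-PRMT5/TCL1 and 1 was Eµ-TCL1. B cells were enriched by removing other cells with a pan-B cell kit rather than by sorting subsets, so each library averages over whichever subsets and diseased cells the spleen held. Eµ-PRMT5 mice carried the Eµ-hPRMT5 transgene, human PRMT5 under a mouse immunoglobulin heavy chain promoter and the IgH-µ enhancer, which act in immature and mature B cells. Eµ-TCL1 mice carried the Eµ-hTCL1 transgene, in which the human TCL1 oncogene drives an expansion of B cells resembling CLL. Eµ-PRMT5/TCL1 mice carried both transgenes (Eµ-hPRMT5/hTCL1) and were bred by crossing the 2 lines. The labels give the strain of all 3 groups as C57BL/6N, while the methods place the Eµ-TCL1 parents on C57BL/6J. No treatment is given for these mice, ages are not in the labels, and wild-type mice were not analysed here, so no group stands for healthy B cells.

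Naive mouse B cells are divided by origin and by place. B-1 cells arise mainly before and around birth, renew themselves in the body cavities and spleen, and are the subset that the CD5-positive leukemia of Eµ-TCL1 mice resembles. Conventional B cells become either marginal zone cells, when Notch2 signals on contact with ligand in the spleen, or recirculating follicular cells, which carry CD23 and depend on Klf2 to keep their place.

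Counts on genes were 5484833, 6471716, 3987989 and 10252426 in Eµ-PRMT5 mice 1 to 4, 6232700, 7290268 and 6686631 across Eµ-PRMT5/TCL1 mice 1 to 3, and 3356297 for the Eµ-TCL1 mouse. Levels are given as CPM after scaling by the trimmed mean of M values (TMM). The gene named as leading a marker list, or as its most abundant, has the highest mean CPM over the 8 libraries. Another gene of the list can be higher in single libraries. All 8 genes listed as B cell markers had counts in every library, but their summed level was uneven. It was 7273, 4471, 7295 and 2089 CPM in Eµ-PRMT5 mice 1 to 4, 3871, 5828 and 9220.1 CPM across Eµ-PRMT5/TCL1 mice, and 5413 CPM for the Eµ-TCL1 mouse, with Cd79a the most abundant. Eµ-PRMT5 mouse 4 stood apart. It had the lowest level among all 8 libraries of Ms4a1 (159 CPM), Cd79a (411 CPM), Cd79b (572 CPM), Blk (199.9 CPM) and Ebf1 (18.4 CPM), but not of Pax5 (83.6 CPM) or Cd22 (336 CPM, with 2 libraries higher). For markers at an extreme in this mouse, the fold change between the replicated genotypes is also given without it.

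The 8 neutrophil markers, led by Ngp, summed to 2681, 2139.7, 419.7 and 5189 CPM across Eµ-PRMT5 mice, 8660.3, 4919 and 632 CPM across Eµ-PRMT5/TCL1 mice and 595 CPM for the Eµ-TCL1 mouse. The macrophage markers, 5 of 8 with a value in every library and led by Lyz2, summed to 1124, 1093, 1243 and 3293 CPM, to 6959.8, 2552 and 988 CPM, and to 1055 CPM in the same order. Both myeloid sums were thus high in Eµ-PRMT5 mouse 4 and in Eµ-PRMT5/TCL1 mice 1 and 2, and low in Eµ-PRMT5/TCL1 mouse 3. Lyz2 made up 85.2% of the macrophage sums over the 8 libraries. Adgre1 of that list went otherwise, with 17.5 CPM in Eµ-PRMT5 mouse 4 and 70.2 CPM in Eµ-PRMT5/TCL1 mouse 3. Csf1r, Cd68 and Vcam1 were higher in the former of these mice, as the sum was. C1qa, C1qb and C1qc, which define tissue macrophages, lacked a value in Eµ-PRMT5 mouse 1, and C1qb had 2737 counts in Eµ-PRMT5 mouse 4. The plasma cell markers, 5 of 5, were led by Jchain on the mean over the 8 libraries. Xbp1 was higher than Jchain in Eµ-PRMT5 mice 2 and 4, Eµ-PRMT5/TCL1 mice 1 and 2 and the Eµ-TCL1 mouse. The list summed to 5740.3, 2444, 1563 and 681 CPM across Eµ-PRMT5 mice, 619, 508 and 2807 CPM across Eµ-PRMT5/TCL1 mice and 2005 CPM for the Eµ-TCL1 mouse. These cells are the antibody-secreting end of the lineage, and their markers ran 11.3-fold from the lowest library to the highest. The T cell markers, 5 of 8 with a value throughout and led by Cd2, summed to 611, 534, 912 and 433 CPM, to 697, 1229 and 706 CPM, and to 446 CPM. Cd2 made up 49.9% of these sums over the 8 libraries. Cd4, Cd8a and Thy1 each lacked a value in at least 1 library.

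The remaining lists were lower or shorter. NK cell markers (2 of 5, led by Nkg7) summed to between 13.2 and 292 CPM with the high value in Eµ-PRMT5 mouse 3, and Klrb1c, Gzma and Klrd1 lacked a value somewhere. Erythroid markers (4 of 6, led by Hba-a1) ran from 17.1 to 292 CPM and peaked in Eµ-PRMT5 mouse 4 and then Eµ-PRMT5/TCL1 mouse 1. Platelet markers (2 of 5, led by Itga2b, without Pf4, Ppbp and Gp1bb) ran from 3.69 to 25.3 CPM, and Gp9 was at 0 in the Eµ-TCL1 mouse. Dendritic cell markers (2 of 5, led by Zbtb46, without Siglech, Itgax and Xcr1) ran from 18.3 to 88.3 CPM. Of 4 endothelial markers, Pecam1 alone had a value throughout, from 29.1 to 186 CPM, and Cdh5, Kdr and Tie1 did not. The 10 immediate early genes, which respond to cell handling, summed to between 2273 and 4566 CPM with Junb the most abundant. Libraries of the same genotype thus differed in markers of other cells, and the part of these cells in the marker results was not tested.

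**Figure D1:**
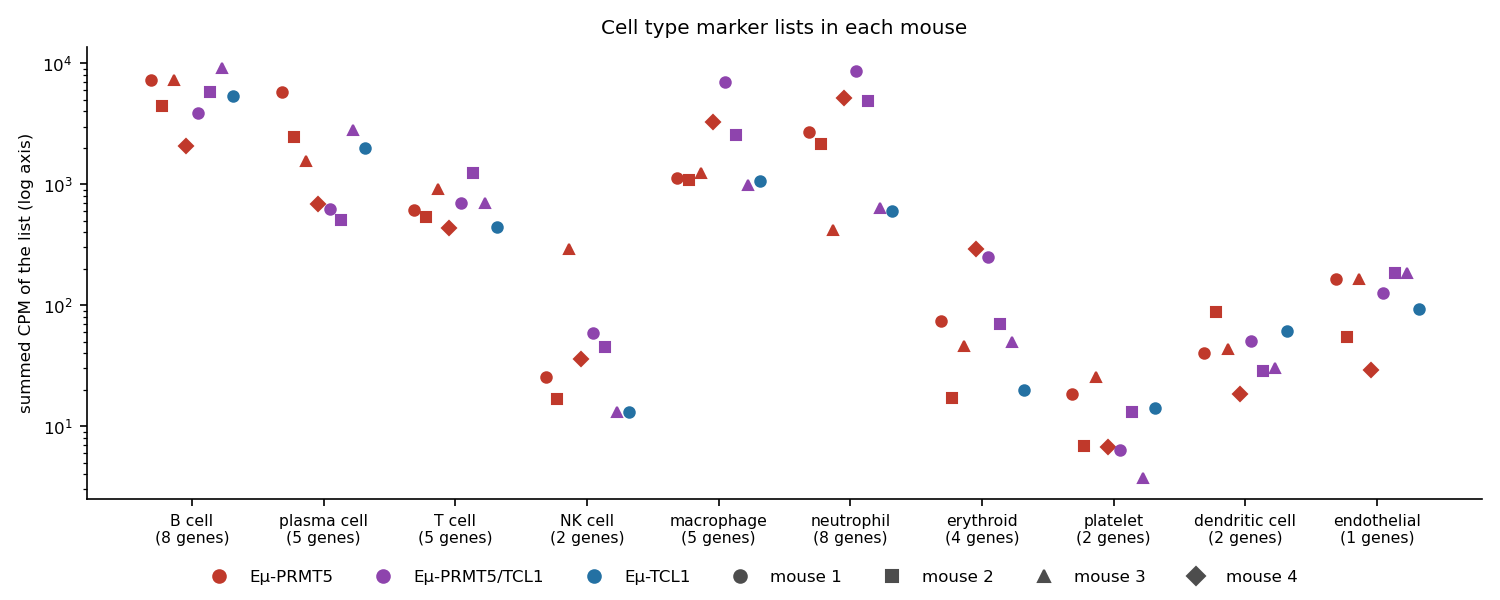
Summed TMM-normalized CPM of each marker list (log axis) in each of the 8 mice, coloured by genotype. The B cell markers are lowest in Eµ-PRMT5 mouse 4 at 2089 CPM, where the neutrophil markers stand at 5189 CPM.

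The comparison with replicates on both sides, Eµ-PRMT5/TCL1 against Eµ-PRMT5, sets mice with both transgenes beside mice with the PRMT5 transgene alone. Mice were taken at ERC, and the paper reports a shorter median survival for Eµ-PRMT5/TCL1 than for Eµ-PRMT5 mice. Without ages in the labels, a difference of genotype cannot be told apart from one of age or disease stage. By edgeR's quasi-likelihood test with Benjamini-Hochberg adjustment, 0 of the 13173 genes had an adjusted p under 0.05 with a fold change over 4 (0%), so 0 of the 10 markers did. DESeq2 called 4 genes on the adjusted p, none of them a marker. At an unadjusted p under 0.05 edgeR gave 286 genes (2.17%) and DESeq2 394, and Fcer2a alone among the 10 markers was in both counts. When single mice were left out, the edgeR number ran from 149 without Eµ-PRMT5/TCL1 mouse 2 to 771 without Eµ-PRMT5 mouse 3. The median log2 fold change was −0.02 over the 10 markers and −0.09 over all genes tested, with 4 markers higher and 6 lower in Eµ-PRMT5/TCL1 mice. No marker separated these genotypes mouse by mouse, since 0 of 10 were higher in every Eµ-PRMT5/TCL1 mouse than in every Eµ-PRMT5 mouse (1.35% of all genes were) and 0 of 10 were lower (1.59%). In a bulk library, fewer cells of a subset and less RNA of a marker per cell cannot be told apart.

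**Figure D2:**
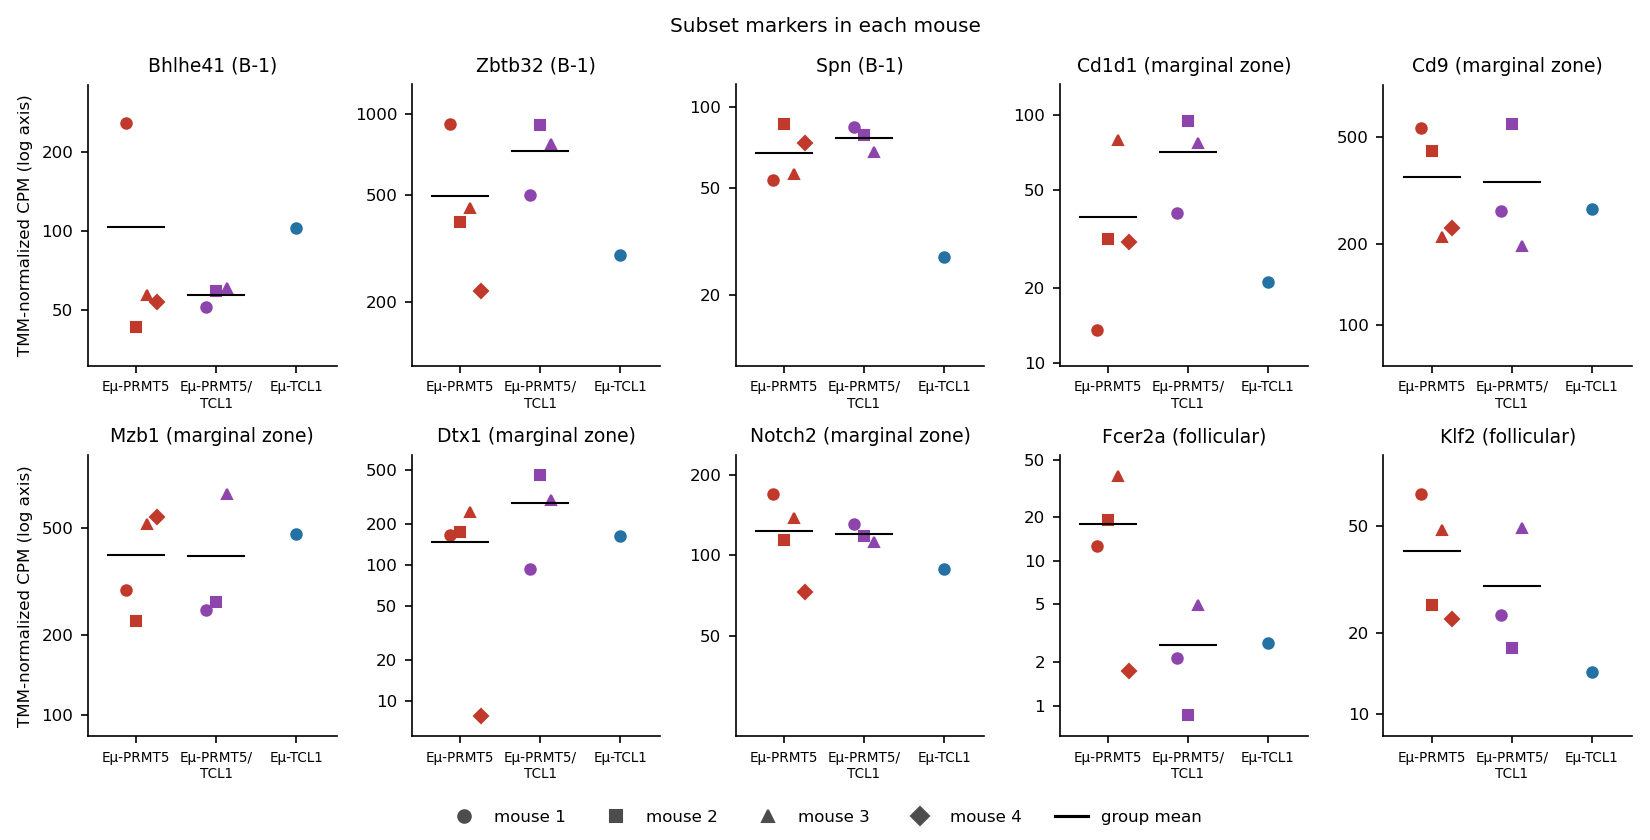
TMM-normalized CPM (log axis) of the 10 subset markers in each mouse, by genotype, with the group mean as a bar and the mouse number as the symbol. Bhlhe41 is high in Eµ-PRMT5 mouse 1 (257 CPM), Dtx1 is low in Eµ-PRMT5 mouse 4 (7.73 CPM), and the groups overlap in every panel that compares Eµ-PRMT5 with Eµ-PRMT5/TCL1 mice.

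Bhlhe41 encodes a basic helix-loop-helix repressor that binds E-boxes and is needed for B-1 cells to form and persist. It lies on the minus strand at chr6:145858243-145865558 (GRCm38). Its level was 257, 42.9, 57 and 53.7 CPM in Eµ-PRMT5 mice 1 to 4, 51.2, 59.2 and 60.4 CPM across Eµ-PRMT5/TCL1 mice, and 102 CPM for the Eµ-TCL1 mouse. A high value in Eµ-PRMT5 mouse 1 alone set this group's mean of 103 ± 103 CPM (SD, n = 4), and the other 3 mice overlapped the Eµ-PRMT5/TCL1 mice, whose mean was 56.9 ± 5.02 CPM (SD, n = 3). The log2 fold change of Eµ-PRMT5/TCL1 against Eµ-PRMT5 mice was −0.85 (SE 0.58), with an edgeR p of 0.168, and it was 0.17 without Eµ-PRMT5 mouse 1. An annotated transcript on the other strand overlaps exons of Bhlhe41, and whether counting used strand is not given in the sources used here, so its reads may include that transcript's. The promoter is shown because it holds the E-box that this family of repressors binds, CACGTG (the same letters on both strands). The other 10 RefSeq promoter windows searched do not hold it. The windows searched belong to 8 markers, without Cd1d1 and Mzb1. Each window runs from 250 bases before to 50 bases after a transcript's start, and 7.15% of 32851 RefSeq promoters of that length hold the motif. The Bhlhe41 window is chr6:145865371-145865670, minus strand (GRCm38.p6), with the E-box in capitals, its first base 153 before the start.
Bhlhe41 promoter: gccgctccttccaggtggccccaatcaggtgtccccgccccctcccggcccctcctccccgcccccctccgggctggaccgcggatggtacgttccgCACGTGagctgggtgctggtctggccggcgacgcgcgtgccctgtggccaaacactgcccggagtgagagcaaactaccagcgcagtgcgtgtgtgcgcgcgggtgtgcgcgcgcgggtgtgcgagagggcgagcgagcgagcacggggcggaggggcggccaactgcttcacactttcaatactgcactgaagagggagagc
The match is a description of the letters in this window, and binding was not measured.

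Zbtb32, a zinc finger repressor expressed in B-1 cells and in activated B cells, lies on the minus strand at chr7:30589681-30598909. It stood at 921, 396, 447 and 219 CPM in Eµ-PRMT5 mice 1 to 4, 498, 909 and 772 CPM across Eµ-PRMT5/TCL1 mice, and 298 CPM for the Eµ-TCL1 mouse. Eµ-PRMT5 mouse 1 was the highest of all 8 libraries, above every Eµ-PRMT5/TCL1 mouse, while the other 3 Eµ-PRMT5 mice were below them. Its log2 fold change of 0.55 (SE 0.47) had an edgeR p of 0.263. Without Eµ-PRMT5 mouse 1 it was 1.06 with a p of 0.0245, and the adjusted p by edgeR's quasi-likelihood test with Benjamini-Hochberg adjustment was 1 in both cases. It was 0.31 without Eµ-PRMT5 mouse 4 and 0.36 without Eµ-PRMT5/TCL1 mouse 2.

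Spn encodes CD43, the sialoglycoprotein that B-1 cells carry and most resting conventional B cells lack, on the minus strand at chr7:127132232-127137823. Its values were the tightest of the B-1 markers among Eµ-PRMT5 mice, at 53.4, 86.9, 56.3 and 73.8 CPM in mice 1 to 4. Across Eµ-PRMT5/TCL1 mice they were 84.3, 78.9 and 67.9 CPM, where Bhlhe41 was tighter (coefficient of variation of 8.83% against 10.8%). The Eµ-TCL1 mouse had 27.6 CPM, from 102 counts. The genotypes with replicates overlapped, with means of 67.6 ± 15.7 CPM (SD, n = 4) and 77 ± 8.34 CPM (SD, n = 3), and the Eµ-TCL1 mouse was below all 7 others. The log2 fold change of Eµ-PRMT5/TCL1 against Eµ-PRMT5 mice was 0.19 (SE 0.32) with an edgeR p of 0.568. It ran from 0.10 to 0.33 without single replicates, and it was −0.29 when libraries were scaled to the summed counts of the 8 B cell markers. That scaling was chosen after seeing the data, and it moved the median of all genes from −0.09 to −0.52.

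All genes of a list of 11 B-1 cell genes were tested. By edgeR 0 of 11 had an adjusted p under 0.05 and 0 an unadjusted p under 0.05 in either direction (DESeq2 likewise 0 and 0), beside 2.17% of all genes at that level, so the count says little for so short a list. The median log2 fold change was −0.11 against −0.09 over all genes. Cd5, the surface receptor by which B-1a cells and Eµ-TCL1 leukemia cells are recognised, stood at 56, 39.4, 56.3 and 28.1 CPM across Eµ-PRMT5 mice, 23.3, 57.6 and 32 CPM across Eµ-PRMT5/TCL1 mice and 16.2 CPM for the Eµ-TCL1 mouse. It overlapped between the replicated groups and was lowest in the Eµ-TCL1 mouse. Bhlhe40, the paralog of Bhlhe41, reached 719 CPM in Eµ-PRMT5 mouse 2 while its 3 group mates had 33.5 to 127 CPM, so the related repressors peaked in different mice.

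Notch2, the receptor whose signal commits B cells to the marginal zone, lies on the plus strand at chr3:98013527-98150361. It stood at 169, 114, 138 and 72.8 CPM in Eµ-PRMT5 mice 1 to 4, 131, 118 and 112 CPM across Eµ-PRMT5/TCL1 mice, and 89.2 CPM for the Eµ-TCL1 mouse. The Eµ-PRMT5/TCL1 mice lay inside the Eµ-PRMT5 range, whose ends were mice 1 and 4. For Notch2 the log2 fold change was −0.03 (SE 0.34, edgeR p of 0.924), and it was 0.02 with upper-quartile scaling. Leaving out Eµ-PRMT5 mouse 1 gave 0.18, and leaving out mouse 4 gave −0.22. An annotated transcript on the same strand overlaps exons of Notch2, so reads may be shared between them.

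Dtx1 encodes Deltex 1, a ubiquitin ligase and a target gene of Notch2 in marginal zone cells, and lies on the minus strand at chr5:120680202-120711927. Its level was 166, 176, 244 and 7.73 CPM in Eµ-PRMT5 mice 1 to 4, 93.9, 461 and 303 CPM across Eµ-PRMT5/TCL1 mice, and 163 CPM for the Eµ-TCL1 mouse. The low value belonged to Eµ-PRMT5 mouse 4 and gave a 31.6-fold range within that genotype, the widest of the 10 markers there. Relative to each library's summed B cell markers, Dtx1 was still lowest in that mouse, with 3.7 per 1000 CPM of B cell markers against 22.8 to 79 in the other 7. In that mouse 5 of the 9 marginal zone genes tested had their lowest CPM of all 8 libraries, Dtx1, Notch2, Cr2, S1pr3 and Fcrl5, as did 17.9% of all genes. Cr2, the complement receptor CD21 (0.346 CPM), and S1pr3, the sphingosine phosphate receptor that holds cells in the marginal zone (5.3 CPM), were among these with Fcrl5 (27.6 CPM), while 1 library had more Mzb1 than its 551 CPM and 2 had more Cd36 than its 124 CPM. Relative to the B cell markers Cr2 was again lowest there (0.166, with 0.977 or more elsewhere), S1pr3 was 2.54 in both Eµ-PRMT5 mice 1 and 4, Fcrl5 was lower for the Eµ-TCL1 mouse (8.74 against 13.2), and Notch2 was highest in mouse 4 at 34.8. The log2 fold change of Eµ-PRMT5/TCL1 against Eµ-PRMT5 mice was 0.95 (SE 0.79, edgeR p of 0.252). Without Eµ-PRMT5 mouse 4 it was 0.55, and without Eµ-PRMT5/TCL1 mouse 2 it was 0.42.

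Cd1d1, the molecule that presents lipid antigens to NKT cells and is abundant on marginal zone cells, lies on the minus strand at chr3:86995834-86999441. It stood at 13.6, 31.7, 79.8 and 30.9 CPM in Eµ-PRMT5 mice 1 to 4, 40.3, 95.2 and 77 CPM across Eµ-PRMT5/TCL1 mice, and 21.1 CPM for the Eµ-TCL1 mouse. Eµ-PRMT5 mouse 3 reached the Eµ-PRMT5/TCL1 range and the other 3 mice of its genotype were below that range. Means were 39 ± 28.5 CPM (SD, n = 4) and 70.8 ± 28 CPM (SD, n = 3). Cd1d1 had a log2 fold change of 0.86 (SE 0.53) with an edgeR p of 0.127. Without Eµ-PRMT5 mouse 3 it was 1.48 with a p of 0.0104 and an adjusted p of 0.769 by edgeR's quasi-likelihood test with Benjamini-Hochberg adjustment.

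Cd9, a tetraspanin of marginal zone, B-1 and antibody-secreting cells, lies on the minus strand at chr6:125460266-125494791. Its values were 542, 444, 212 and 229.7 CPM in Eµ-PRMT5 mice 1 to 4, 265, 562 and 196 CPM across Eµ-PRMT5/TCL1 mice, and 271 CPM for the Eµ-TCL1 mouse. Mzb1, a chaperone of the endoplasmic reticulum that helps assemble and secrete antibody, lies on chromosome 18 and stood at 293, 224, 515 and 551 CPM, at 248, 264 and 668 CPM, and at 473 CPM in the same order. Both genes overlapped between the replicated groups. Eµ-PRMT5 mice 1 and 2 had much Cd9 and little Mzb1, mice 3 and 4 the reverse, and Eµ-PRMT5/TCL1 mouse 3 combined the lowest Cd9 with the highest Mzb1. The log2 fold change of Cd9 was −0.07 (SE 0.47, edgeR p of 0.889) and was 0.02 with upper-quartile scaling, −0.63 without Eµ-PRMT5/TCL1 mouse 2 and 0.22 without Eµ-PRMT5 mouse 1. That of Mzb1 was −0.01 (SE 0.46, edgeR p of 0.983) and was 0.01 with library size only and 0.05 with upper-quartile scaling. Without Eµ-PRMT5/TCL1 mouse 3 Mzb1 was −0.63 and without mouse 1 of that genotype 0.23, and it was 0.19 without Eµ-PRMT5 mouse 4, so neither gene had a direction that held. Exons of Cd9 are overlapped by an annotated transcript on the other strand and those of Mzb1 by another gene on the same strand.

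Of a list of 10 marginal zone genes, 9 were tested, since Hes1, a repressor that Notch signals switch on, lacked a value in Eµ-PRMT5 mouse 4 and in Eµ-PRMT5/TCL1 mouse 2. By edgeR 0 of 9 passed an adjusted p under 0.05 and 0 an unadjusted p under 0.05 between the replicated genotypes (DESeq2 likewise 0 and 0), with a median of −0.01. The wider Notch pathway list of receptors, cleaving enzymes, nuclear partners and targets had 20 of 24 genes tested, without Lfng, Hes1, Hey1 and Nrarp. Its median was −0.25, with 15 of 20 genes lower, beside −0.09 and 7823 of 13173 for all genes. By edgeR 0 of 20 passed the adjusted p (DESeq2 0), and 1 gene, Mfng, had an unadjusted p under 0.05 (DESeq2 1), as did 2.17% of all genes. Mfng, a glycosyltransferase that tunes how Notch receptors bind ligand, stood at 92.3, 66.3, 51.7 and 95 CPM across Eµ-PRMT5 mice and 41.3, 40.2 and 50.1 CPM across Eµ-PRMT5/TCL1 mice. Every Eµ-PRMT5/TCL1 mouse was below every Eµ-PRMT5 mouse, as for 1.59% of all genes, with 50.1 against 51.7 CPM at the closest, and the log2 fold change was −0.80 (SE 0.34, edgeR p of 0.0377). Relative to the summed B cell markers, the groups overlapped, with 10.7 per 1000 CPM in Eµ-PRMT5/TCL1 mouse 1 and 7.09 in Eµ-PRMT5 mouse 3. Rbpj, the DNA-binding partner through which Notch receptors act, overlapped between these genotypes, with a log2 fold change of −0.24 (SE 0.49).

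Fcer2a encodes CD23, the low-affinity IgE receptor, which follicular B cells carry and marginal zone and B-1 cells largely lack. It lies on the minus strand at chr8:3681737-3694175. Its level was 12.6, 19.3, 38.5 and 1.73 CPM in Eµ-PRMT5 mice 1 to 4, 2.13, 0.858 and 4.92 CPM across Eµ-PRMT5/TCL1 mice, and 2.7 CPM for the Eµ-TCL1 mouse. The counts behind these values were 62, 122, 169 and 15, then 13, 6 and 32, then 10, so counting error is large in the Eµ-PRMT5/TCL1 and Eµ-TCL1 libraries. Eµ-PRMT5 mice 1 to 3 were above all 4 mice that carried TCL1, and Eµ-PRMT5 mouse 4 lay among those. Means were 18 ± 15.5 CPM (SD, n = 4) and 2.64 ± 2.08 CPM (SD, n = 3). This was the largest log2 fold change of the 10 markers in this comparison, −2.76 (SE 0.93), with an edgeR p of 0.0116. The adjusted p was 1 by edgeR's quasi-likelihood test and 0.395 by DESeq2, both with Benjamini-Hochberg adjustment, so the difference failed the correction over all genes. Leaving out single libraries gave between −3.58 and −2.08, with edgeR p-values from 0.00111 to 0.0466, and −3.15 without Eµ-PRMT5 mouse 4.

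Relative to the summed B cell markers of each library, a scale chosen after seeing the data, Fcer2a stood at 1.73, 4.32, 5.28 and 0.828 per 1000 CPM in Eµ-PRMT5 mice 1 to 4, 0.551, 0.147 and 0.533 across Eµ-PRMT5/TCL1 mice, and 0.5 for the Eµ-TCL1 mouse. On this scale every Eµ-PRMT5/TCL1 mouse was below every Eµ-PRMT5 mouse, as it was for 1.59% of all genes tested and for 1 of the 10 markers, and 0 of 10 were above (0.159% of all genes). With libraries scaled to the B cell marker counts in the fit, the log2 fold change was −2.89 with an edgeR p of 0.00103 and, by edgeR's quasi-likelihood test with Benjamini-Hochberg adjustment, an adjusted p of 0.953. Some genes of other cells also differed at an unadjusted p under 0.05. Cd3d, a chain of the T cell receptor complex, stood at 13.2, 6.81, 44.7 and 2.65 CPM across Eµ-PRMT5 mice, 4.1, 2.43 and 2.15 CPM across Eµ-PRMT5/TCL1 mice and 2.43 CPM for the Eµ-TCL1 mouse. It had an edgeR p of 0.0136 for a log2 fold change of −2.53 (SE 0.88), and Cd3e of the same complex had −1.54 (SE 0.67, p of 0.0396). Cd3g, also of that complex, had −0.20 (SE 0.60, edgeR p of 0.742) and was highest in Eµ-PRMT5 mouse 4 at 95.1 CPM. In the T cell list 2 of 5 genes had an unadjusted p under 0.05, both lower in Eµ-PRMT5/TCL1 mice, where 2.17% of all genes had such a p in either direction, and the list median was −0.20. Cd2 and Lck, the most abundant genes of the T cell list, went the other way. Cd2 stood at 113 to 359.6 CPM in Eµ-PRMT5 mice and 422 to 524 CPM in Eµ-PRMT5/TCL1 mice, without overlap, for a log2 fold change of 0.75 (SE 0.41, edgeR p of 0.0922), and Lck had 0.49 (SE 0.48). In Eµ-PRMT5/TCL1 mouse 2 Cd2 was 524 CPM and Lck 667 CPM, while Cd3d was 2.43 CPM and Cd3e 6.43 CPM. Which cells the Cd2 and Lck reads came from was not tested. In the plasma cell list Sdc1 (−2.50, SE 0.66) and Xbp1 (−1.34, SE 0.61), 2 of 5, were lower at that level, with edgeR p-values of 0.00261 and 0.048 and a list median of −0.82. In the neutrophil list 2 of 8 did, Mmp8 at −2.03 (SE 0.86, edgeR p of 0.0355) and Mpo at 2.13 (SE 0.94, p of 0.0419), and in the platelet list Gp9 did, at −1.59 (SE 0.69, p of 0.0406). In these lists 0 genes passed the adjusted p by edgeR or DESeq2, and the part of these cells in the Fcer2a difference was not tested.

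CD23 is described as a Notch2 target in human CLL cells. The same promoter windows, 11 in all from 8 markers, were therefore searched for the core letters bound by RBPJ, TGGGAA or TTCCCA on the other strand. The core occurred in 3 windows of 2 markers, Cd9 and Fcer2a, and 25.6% of 32851 promoters of this length hold it. Fcer2a is shown because it carried the largest difference and has several annotated starts, which differ in this motif. The first window, chr8:3694125-3694424, holds neither this core nor the E-box. The second, chr8:3690812-3691111, holds the RBPJ core at 2 places, in capitals, with first bases 248 and 168 before the start. Both are on the minus strand of GRCm38.p6.
Fcer2a first promoter: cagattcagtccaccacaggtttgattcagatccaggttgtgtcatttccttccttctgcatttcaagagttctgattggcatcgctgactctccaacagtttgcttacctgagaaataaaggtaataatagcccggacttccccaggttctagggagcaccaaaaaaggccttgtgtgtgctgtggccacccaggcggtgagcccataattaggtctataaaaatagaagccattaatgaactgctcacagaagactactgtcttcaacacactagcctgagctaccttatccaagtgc
Fcer2a second promoter: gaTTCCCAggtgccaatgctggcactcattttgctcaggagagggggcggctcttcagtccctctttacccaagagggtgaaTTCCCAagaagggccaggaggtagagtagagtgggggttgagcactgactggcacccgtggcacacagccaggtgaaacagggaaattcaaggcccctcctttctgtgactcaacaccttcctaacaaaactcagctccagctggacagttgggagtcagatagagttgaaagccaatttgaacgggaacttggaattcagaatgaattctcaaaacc
The gene-level counts do not say which start was used, and the motifs are descriptions of the sequence.

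Klf2, a transcription factor that keeps resting B cells follicular and recirculating, lies on the plus strand at chr8:72319033-72321656. It stood at 65.8, 25.5, 48.3 and 22.6 CPM in Eµ-PRMT5 mice 1 to 4, 23.3, 17.6 and 49.2 CPM across Eµ-PRMT5/TCL1 mice, and 14.3 CPM for the Eµ-TCL1 mouse. The replicated groups overlapped and the Eµ-TCL1 mouse was below all others. Its log2 fold change between those groups was −0.43 (SE 0.50, edgeR p of 0.404), and it was −0.07 without Eµ-PRMT5 mouse 1 and −0.63 without mouse 4. Leaving out Eµ-PRMT5/TCL1 mice 1, 2 or 3 in turn gave −0.28, −0.16 and −0.99. Among 7 follicular genes, all tested, Fcer2a was the 1 with an unadjusted p under 0.05 by edgeR and by DESeq2, 0 passed the adjusted p by either, and the median was −0.43, beside 2.17% and −0.09 for all genes. Cxcr5, the receptor that brings B cells into follicles, had a log2 fold change of 0.58 (SE 0.55) and was lowest in Eµ-PRMT5 mouse 4 at 31.9 CPM.

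**Figure D3:**
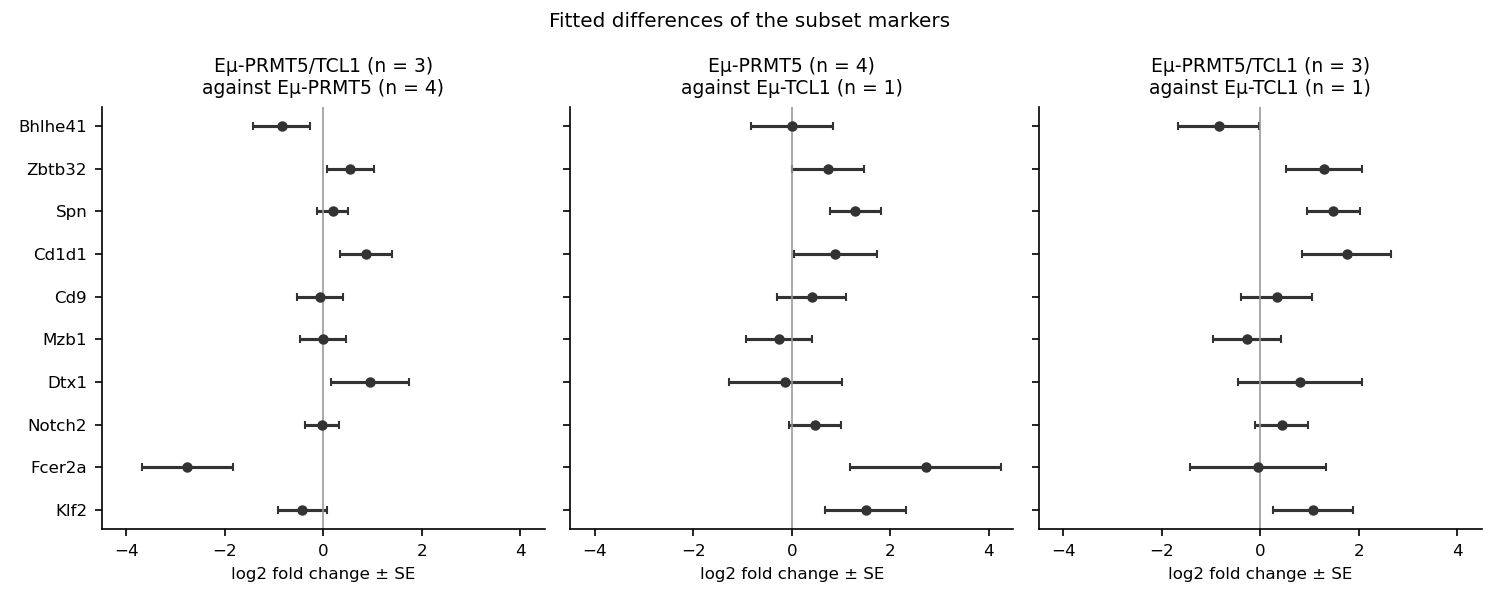
Log2 fold changes of the 10 markers with their standard errors in the 3 comparisons between genotypes. Fcer2a has −2.76 for Eµ-PRMT5/TCL1 against Eµ-PRMT5, Spn has 1.29 and 1.48 in the comparisons with the Eµ-TCL1 mouse, and no point has an adjusted p under 0.05.

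The Eµ-TCL1 genotype was represented by 1 mouse, so comparisons with it have no replicate on that side and ask only whether that mouse lay outside the spread of the other groups. They share that mouse, and values are set side by side without counting how often they point the same way. The shares of all genes at an unadjusted p under 0.05 given below also moved when single mice were left out. For Eµ-PRMT5 against Eµ-TCL1, 0 of 13173 genes passed the adjusted p and the fold by edgeR (0%), 893 (6.78%) had an unadjusted p under 0.05, and DESeq2 gave 18 and 1126 on the adjusted and unadjusted p. For Eµ-PRMT5/TCL1 against Eµ-TCL1 these numbers were 0 (0%), 802 (6.09%), 16 and 930. Among the 10 markers 0 passed the adjusted p in either comparison, and Spn was the 1 with an unadjusted p under 0.05 by edgeR in each. DESeq2 put 3 markers under that level in the first comparison (Spn, Fcer2a and Klf2) and 2 in the second (Spn and Cd1d1).

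Spn was higher than in the Eµ-TCL1 mouse by a log2 fold change of 1.29 (SE 0.52, edgeR p of 0.0285) in Eµ-PRMT5 mice and 1.48 (SE 0.54, edgeR p of 0.0173) in Eµ-PRMT5/TCL1 mice, in 7 of 7 mice. The adjusted p was 0.709 and 0.778 by edgeR's quasi-likelihood test with Benjamini-Hochberg adjustment. Without Eµ-PRMT5 mouse 2 the value of 1.29 became 1.15 with a p of 0.0606. The value of 1.29 became 1.04 with library size only (edgeR p of 0.0583) and 1.38 with the 2 compared groups alone (p of 0.0608). Scaled to the B cell markers it was 1.77 with a p of 0.181. That scaling also took the value of 1.48 to a p of 0.263. The larger p of the value of 1.29 thus came with a smaller fold for library size only. With the 2 compared groups alone and with the B cell marker scaling the fold was not smaller. Klf2 had 1.50 (SE 0.82, edgeR p of 0.0919) and 1.07 (SE 0.81, p of 0.214). Spn and Klf2, 2 of 10 markers, had their lowest value of all 8 libraries in the Eµ-TCL1 mouse, as did 14.2% of all genes (8.15% with library size only), and 0 of 10 had their highest there, as did 21.3% of all genes. Relative to the summed B cell markers, 3 of 10 had their lowest value there, Zbtb32 beside these, and 5.5% of all genes did. Fcer2a was 2.72 (SE 1.53, edgeR p of 0.0994) in Eµ-PRMT5 mice and −0.04 (SE 1.38, p of 0.978) in Eµ-PRMT5/TCL1 mice, so the Eµ-TCL1 mouse lay among the Eµ-PRMT5/TCL1 mice for CD23. The latter value ran from −0.86 without Eµ-PRMT5/TCL1 mouse 3 to 0.38 without mouse 2. Without Eµ-PRMT5 mouse 4 the first of these was 3.11 with a p of 0.0228. Bhlhe41 had 0.00 (SE 0.83) and −0.85 (SE 0.82), and the first was −0.89 without Eµ-PRMT5 mouse 1, −0.20 with upper-quartile scaling and −0.30 with library size only.

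Cd1d1 had 0.88 (SE 0.84) in Eµ-PRMT5 mice and 1.75 (SE 0.91, edgeR p of 0.0774) in Eµ-PRMT5/TCL1 mice, and Zbtb32 had 0.73 (SE 0.73) and 1.29 (SE 0.78, p of 0.123). Without Eµ-PRMT5 mouse 1 the values against Eµ-TCL1 in Eµ-PRMT5/TCL1 mice were 1.87 for Cd1d1 and 1.41 for Zbtb32, both then at an unadjusted edgeR p under 0.05. The median of all genes moved from −0.07 to 0.05 in that fit, and why these p-values fell was not tested. Without Eµ-PRMT5 mouse 3 the p of Cd1d1 was 0.0377. Dtx1 had −0.13 (SE 1.15) and 0.81 (SE 1.26), and its first value was 0.26 without Eµ-PRMT5 mouse 4. Notch2 had 0.47 (SE 0.52) and 0.43 (SE 0.53), Cd9 0.40 (SE 0.70) and 0.33 (SE 0.72), and Mzb1 −0.26 (SE 0.67) and −0.27 (SE 0.69). Cd9 in Eµ-PRMT5/TCL1 mice was −0.23 without mouse 2 of that genotype, and Mzb1 in Eµ-PRMT5 mice was 0.28 when scaled to the B cell markers. Over the 10 markers the medians were 0.60 and 0.62, against 0.04 and −0.07 over all genes tested, with 8 and 7 of 10 above 0, where 6842 and 6140 of 13173 genes were. The scaling moves the reference itself, since the all-gene medians became −0.21 and −0.30 with library size only, −0.12 and −0.17 with upper-quartile scaling, and 0.39 and −0.12 when scaled to the B cell markers.

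In the lists, 0 genes passed the adjusted p against the Eµ-TCL1 mouse by edgeR or DESeq2. The counts at an unadjusted p under 0.05 stand beside 6.78% and 6.09% of all genes in the 2 comparisons. The B-1 list had medians of 0.73 and 0.88, with 2 of 11 and 1 of 11 genes at an unadjusted p under 0.05 (DESeq2 3 and 1). Beside Spn, the first count held Ctla4, an inhibitory receptor found on B-1a cells, which was 114 CPM for the Eµ-TCL1 mouse and 12.9 to 87.3 CPM elsewhere. The marginal zone list had medians of 0.40 and 0.44, with 0 of 9 and 2 of 9 (DESeq2 1 and 3). Those 2 pointed in opposite directions, Fcrl5 at 2.33 (SE 1.02, edgeR p of 0.0411) and Cd36 at −2.06 (SE 0.91, p of 0.0422). The follicular list had medians of 1.50 and 0.79, with 7 of 7 and 6 of 7 genes above 0, beside 6842 and 6140 of 13173 for all genes.

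The Notch pathway list had medians of 0.14 and −0.09, with 1 of 20 genes at an unadjusted p under 0.05 in each comparison (DESeq2 0 and 1), beside 6.78% and 6.09% of all genes. The gene was Notch1, the receptor paralogous to Notch2, at 126 CPM for the Eµ-TCL1 mouse and 29.4 to 77.5 CPM in the other 7. Its log2 fold changes were −1.21 (SE 0.52, edgeR p of 0.0371) and −1.55 (SE 0.53, p of 0.0134), so Notch1 was highest in the mouse in which Notch2 was next to lowest. The B cell list had a median of 0.12 in both comparisons, with 0 of 8 at an unadjusted p under 0.05 (DESeq2 0 and 1). Neutrophil markers had medians of 2.09 and 2.50 and macrophage markers 0.66 and 1.74, with 0 and 0 of them at that level in the first (DESeq2 3 and 0) and 1 of 8 and 1 of 5 in the second (DESeq2 5 and 2). Erythroid markers had medians of 2.55 and 2.48, with 0 of 4 genes at that level in each (DESeq2 2 and 2). Plasma cell markers had medians of 0.63 and −1.18, with 1 of 5 and 2 of 5 (DESeq2 1 and 2), beside the same shares of all genes. Prdm1, the regulator of antibody-secreting cells, stood at 209.8 CPM for the Eµ-TCL1 mouse and 29.5 to 95.2 CPM elsewhere, for log2 fold changes of −1.82 (SE 0.52, edgeR p of 0.00424) and −2.32 (SE 0.54, p of 0.00109). Xbp1 had −1.90 (SE 0.82, p of 0.0385) in the second comparison. Jchain went the other way, with 3.01 (SE 2.23) and 2.27 (SE 2.15). In the first comparison so did Sdc1 with 1.32 (SE 0.98) and Irf4 with 0.63 (SE 0.72). By the mean over the 8 libraries Jchain was the most abundant of the list, but the Eµ-TCL1 mouse had 156 CPM of Jchain and 1480 CPM of Xbp1. The immediate early genes had medians of 0.24 and 0.69. Among them Egr1 was highest in the Eµ-TCL1 mouse (895 CPM, 69.2 to 564 CPM elsewhere) and Jun lowest (38.4 CPM, 73.1 to 895 CPM elsewhere). In the NK cell list Nkg7 was lowest there (2.43 CPM, 7.84 to 279 CPM elsewhere), and Ncr1 was not (10.8 CPM, 3.28 to 13 CPM elsewhere). The part of these cells and of cell handling in the marker values of the Eµ-TCL1 mouse was not tested.

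Levels of different markers can be compared only per length, as CPM per kb of exon. On that scale the mean over the 8 libraries was 333 for Mzb1, 237 for Zbtb32 and 166 for Cd9, and these were the 3 most abundant in every library. Their own order changed, with Zbtb32 first in Eµ-PRMT5 mouse 1 and Eµ-PRMT5/TCL1 mice 1 and 2, Cd9 first in Eµ-PRMT5 mouse 2, and Mzb1 first in the other 4. By the mean Dtx1 came next with 38.3 CPM per kb, but it was number 4 of 10 in 5 of 8 libraries and number 9 in Eµ-PRMT5 mouse 4 (1.47 CPM per kb). Cd1d1 with 18.9, Klf2 with 18, Spn with 14.1, Bhlhe41 with 12.7 and Notch2 with 10.9 CPM per kb then lay close together and exchanged places between libraries. Fcer2a came last with 3.35 CPM per kb and was last in 7 of 8 libraries, the exception being Eµ-PRMT5 mouse 3, where it had 12.5 CPM per kb and Bhlhe41 was last. The CD23 transcript was therefore the scarcest of these markers in the pooled B cells of nearly every mouse.

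How the markers varied together was described by correlating log2 CPM over the 8 mice, with genotypes pooled, for all 45 pairs, each with a two-sided exact permutation p over the orders of the mice. After Benjamini-Hochberg adjustment over the 45 pairs, 0 had an adjusted p under 0.05, the smallest being 0.571 for Pearson's r and 0.482 for Spearman's rho. Unadjusted, 3 pairs were under 0.05 by Pearson and 1 by Spearman. The median r was 0.163, with 30 pairs above 0 and 15 below. Pairs of the same subset went in both directions, and they were not tested against pairs of different subsets. The marginal zone markers Cd9 and Mzb1 gave r = −0.786 (exact permutation p of 0.0381, adjusted 0.571) and rho = −0.714 (exact p of 0.0576, adjusted 0.748). That pair kept its sign without the 2 farthest mice (r = −0.833) and after centring each genotype (r = −0.791 over 7 mice).

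Zbtb32, a B-1 marker, ran with 2 genes of the Notch axis. With Notch2 it gave r = 0.763 (exact permutation p of 0.0271, adjusted 0.571) and rho = 0.714 (exact p of 0.0576, adjusted 0.748). Within genotypes r was 0.806, but without the 2 farthest mice, Eµ-PRMT5 mice 1 and 4, it was 0.366, and without mouse 4 alone 0.579, so the relation rests on those samples. With Dtx1 it gave r = 0.727 (exact permutation p of 0.0178, adjusted 0.571) and rho = 0.571 (exact p of 0.151, adjusted 0.85), with r = 0.777 within genotypes, 0.683 without the 2 farthest mice and 0.49 without mouse 4. Dtx1 and Notch2, the target and its receptor, had r = 0.616 (exact permutation p of 0.122, adjusted 0.754) and rho = 0.286 (exact p of 0.501, adjusted 1), with r = 0.74 within genotypes. That relation rests on Eµ-PRMT5 mouse 4, since r was −0.114 without the 2 farthest mice and −0.131 without mouse 4 alone. The B-1 markers Bhlhe41 and Spn ran in opposite order, with rho = −0.857 (exact permutation p of 0.0107, adjusted 0.482), r = −0.556 (exact p of 0.134, adjusted 0.754), r = −0.697 within genotypes and r = −0.617 without the 2 farthest mice. The follicular markers Fcer2a and Klf2 had r = 0.666 (exact permutation p of 0.0736, adjusted 0.638) and rho = 0.667 (exact p of 0.0831, adjusted 0.748). Their r was 0.643 within genotypes and 0.853 without the 2 farthest mice. With library size only, 4 pairs had an unadjusted Pearson p under 0.05, 0 an adjusted, and 5 pairs changed sign.

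**Figure D4:**
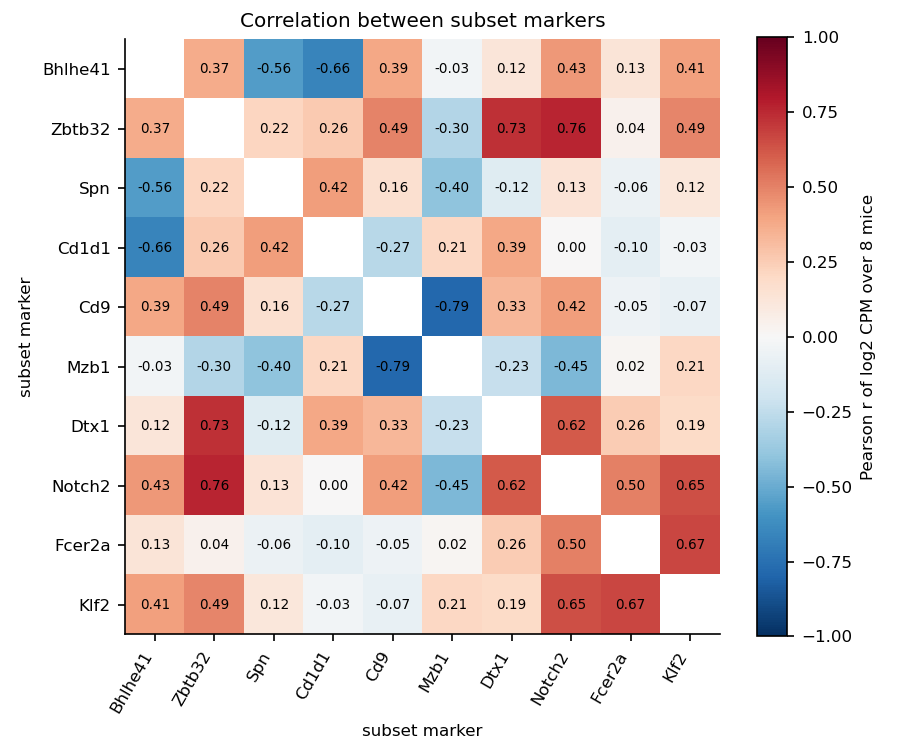
Pearson correlation of log2 CPM between the 10 subset markers over the 8 mice, with colour from −1 to 1. Cd9 and Mzb1 are at −0.786 and Zbtb32 and Notch2 at 0.763, and none of the 45 pairs has an adjusted p under 0.05.

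For each marker the nearest pattern over the 8 mice was sought among 9924 other genes tested with a mean of at least 10 CPM, as a description over few samples that share depth and cell content. The nearest to Bhlhe41 included Prkar2a (r = 0.99) and Zmynd8 (0.973), which both peaked in Eµ-PRMT5 mouse 1. The nearest to Dtx1 were Cxcr5 (r = 0.978), Pold4 (0.974) and Rusc1 (0.966). Cxcr5, itself on the follicular list, shared with Dtx1 the low value in Eµ-PRMT5 mouse 4 and the high one in Eµ-PRMT5/TCL1 mouse 2. Cd1d1 was nearest to Gdpgp1 (r = 0.941), Tbx21 (0.915) and Sh3bp5 (0.914), and Tbx21 encodes T-bet, a regulator of atypical B cells and of T cells. Mzb1 was nearest to Ivd (r = 0.981), Pou2f1 (0.963) and Cyfip2 (0.942), of which Pou2f1 encodes the octamer-binding factor Oct-1. Fcer2a was nearest to Gm4924 (r = 0.97), Nhlrc3 (0.954) and 2610005L07Rik (0.949). For Zbtb32 these were Cblb (r = 0.954), Ephx1 (0.934) and Snap29 (0.929), for Spn Fbxo22 (0.973), Llph (0.958) and Rps6ka4 (0.951), and for Cd9 Avl9 (0.959), Plcd3 (0.958) and Lgals8 (0.957). Notch2 was nearest to Cklf (r = 0.959), Irf2 (0.954) and Ptms (0.949), and Klf2 to Trit1 (0.941), Samd9l (0.929) and Ankrd16 (0.925).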

How the data were processed

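The RNA-seq libraries hold splenic B cells of 8 mice. The starting point was a table the authors deposited of unnormalized counts, with gene symbols down and mice across. The submitters' processing notes name DESeq2 1.20.0, Subread, featureCounts and GRCm38. For these diseased mice the methods describe low-input preamplification, the CLEAR workflow, which selects quantifiable transcripts by their coverage, and the DESeq2 version of the notes. The labels conflict with this and name a stranded mRNA kit, which the methods describe, with Cutadapt, STAR, featureCounts and an Ensembl annotation, for another set of mice. The aligner used within CLEAR and whether strand was used in counting are not given in the sources used here, nor is whether cells holding NA are those CLEAR set aside.

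Of 24902 symbols, 14072 with a value in all 8 libraries were used. The genotype came from the labels. Counts were analysed in R 4.3.3 with edgeR 4.0.16 (TMM factors, expression filter by group, 13173 genes, 1 model over 3 genotypes, quasi-likelihood test, Benjamini-Hochberg adjustment over all genes). A call needed an adjusted p under 0.05 and a fold over 4. The biological coefficient of variation was 0.483, from the replicated groups. The code was tested on simulated data. Alternatives were DESeq2 1.42.0, NA counted as 0, library size only, upper-quartile scaling, a floor of 10 counts in every sample, no filter, the compared groups alone, a replicate block, and each replicate left out; scaling to the 8 B cell markers was added after seeing the data. Correlations used log2 CPM (prior count 2), Python 3.11.15 and scipy 1.17.1. Gene positions are from GENCODE M21 (GRCm38) and promoters from RefSeq (GRCm38.p6).

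The members and lists were chosen with earlier results of these data known. Genes named were the 10 markers, members of the subset, Notch pathway, cell type and immediate early gene lists, and genes among the 3 nearest to each marker in pattern. The T cell and plasma cell genes set beside Fcer2a, and the markers low in Eµ-PRMT5 mouse 4, were chosen from their lists after their values were seen. So were the immediate early and NK cell genes described for the Eµ-TCL1 mouse. The lists were B-1, marginal zone, follicular and Notch pathway genes, markers of B, T, NK, macrophage, neutrophil, erythroid, platelet, plasma, dendritic and endothelial cells, and immediate early genes. Single-gene results for some genes of these lists are not reported here.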

Additional observations from a re-analysis of the deposited data

Results flagged for a closer look

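Among 50 genes of the subset, Notch pathway and B cell lists, the 4 Eµ-PRMT5 mice were searched for a mouse far from the other 3, by the gap to its nearest neighbour relative to the whole range (Dixon's ratio). Chance flags about 1 in 20 groups of normally distributed values, and 5 of 50 genes passed, 1 of them a subset marker. The ratio was taken on CPM without a log, and all 5 were high values. The number is therefore not read against that rate. Bhlhe41 stood at 257 CPM in mouse 1, against 42.9 to 57 CPM in the others (ratio 0.934). Mouse 1 was also high in Adam10, the protease that cleaves Notch receptors (275 CPM against 117 to 140.4 CPM), and in Psenen, a subunit of gamma-secretase (145 CPM against 94.1 to 102 CPM). Mouse 2 was high in Bhlhe40 (719 CPM against 33.5 to 127 CPM) and in the homing receptor Ccr7 (1251 CPM against 134 to 238 CPM). The genes share their libraries and are not independent, and what sets these mice apart was not tested.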

How the results depend on the processing

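Over 17 alternatives for the first comparison and 15 for each of the others, 431 of 467 log2 fold changes of the 10 markers kept their direction, 36 did not, and 0 passed the adjusted p with a fold over 4. Fcer2a could not be tested with at least 10 counts in every sample. The genes past the threshold, 0 by edgeR in each comparison, were 3 higher and 1 lower with DESeq2 for Eµ-PRMT5/TCL1 against Eµ-PRMT5, 4 and 14 for Eµ-PRMT5 against Eµ-TCL1, and 9 and 7 for Eµ-PRMT5/TCL1 against Eµ-TCL1. Scaled to the 8 B cell markers, chosen after seeing the data, they were 1, 2 and 1, all lower. On that scale 1 marker instead of 0, Fcer2a, was below in every Eµ-PRMT5/TCL1 mouse.

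For Eµ-PRMT5/TCL1 against Eµ-PRMT5, 1 marker had an unadjusted p under 0.05 by edgeR. Without single replicates this number ranged from 1 to 2, while that of all genes at this level ranged from 149 to 771 (286 with all mice). In the comparisons with the Eµ-TCL1 mouse both numbers also moved without single replicates. With at least 10 counts in every sample 0 markers were at that level in the first comparison, beside 229 of 11045 genes. Fcer2a was not among the genes tested there. For Eµ-PRMT5 against Eµ-TCL1 the number of markers at that level was higher with DESeq2. It was lower with library size only, with the 2 compared groups alone and with scaling to the B cell markers. For Eµ-PRMT5/TCL1 against Eµ-TCL1 it was higher with DESeq2, with NA counted as 0 and with the 2 compared groups alone. With scaling to the B cell markers it was lower. The number of all genes at that level also changed in these fits, so these moves are not read as results about the markers.

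For Eµ-PRMT5/TCL1 against Eµ-PRMT5, upper-quartile factors reversed Cd9 (0.02), Mzb1 (0.05) and Notch2 (0.02). Mzb1 was also reversed with library size only (0.01), at least 10 counts (0.01), NA counted as 0 (0.02) and mice 1 to 3 alone (0.19), and Spn with scaling to the B cell markers (−0.29). Without single replicates Bhlhe41 ran from −1.11 to 0.17, Cd9 from −0.63 to 0.22, Mzb1 from −0.63 to 0.23 and Notch2 from −0.22 to 0.18. For Eµ-PRMT5 against Eµ-TCL1, Bhlhe41 was −0.20 with upper-quartile factors and −0.30 with library size only, Mzb1 0.01 and Dtx1 0.08 with NA counted as 0, and Mzb1 0.28 with scaling to the B cell markers. Without single replicates Bhlhe41 ran from −0.89 to 0.26 and Dtx1 from −0.48 to 0.26. For Eµ-PRMT5/TCL1 against Eµ-TCL1, Fcer2a was 0.05 with DESeq2, 0.26 with NA counted as 0 and 0.08 with the 2 compared groups alone, and Mzb1 was 0.04 with NA counted as 0. Without single replicates Fcer2a ran from −0.86 to 0.38 and Cd9 from −0.23 to 0.61. The cause of these differences was not tested.

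The mouse numbers of the labels were tried as a replicate block over mice 1 to 3 of Eµ-PRMT5 and Eµ-PRMT5/TCL1. Deviations of mice with the same number correlated at 0.0213, 0.106 and 0.162, so the numbers were not read as pairing. With the block 826 genes had an unadjusted p under 0.05 and without it, in the same mice, 742, and 0 an adjusted p in both. Among the markers 2 did with the block (Fcer2a and Cd1d1), and Mzb1 reversed to 0.12.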
